A study of Mus musculus with 4 samples.

Results

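The cells described here are kidney monocytes and dendritic cells that carried little or no C1q RNA, the complement RNA that marks resident kidney macrophages. Single-cell RNA-Seq (scRNA-Seq) had been run on whole kidneys, and the cells were selected on their own measured RNA, by counts of unique molecular identifiers (UMIs), each of which stands for 1 captured RNA molecule. A barcode needed 200 to 5000 detected genes, under 50% mitochondrial UMIs, at least 1 UMI of Ptprc (CD45, the surface protein of blood-derived cells), at least 3 UMIs over Plac8, Ly6c2, Ccr2, Flt3, Cd209a and Xcr1, and at least 5 UMIs over Lyz2 and Cd74. It could hold no more than 4 UMIs of C1qa, C1qb and C1qc, 9 of the neutrophil genes S100a8 and S100a9, 1 of the T cell genes Cd3d, Cd3e and Cd3g, and 1 of the B cell genes Cd79a and Ms4a1. Of 58660 barcodes in the series, 34789 met the limits on genes and mitochondrial UMIs, 3268 of those had Ptprc, and 535 passed the whole gate.

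The kidneys came from male C3H/HeJ mice at 18 weeks of age. SP (Sweet Pee) mice were homozygous for a germline missense allele of Slc5a2, which encodes the proximal tubule glucose transporter SGLT2, so every cell carried it, and WT mice had the normal gene. Mice of either genotype ate a normal diet (ND) or, from 10 weeks of age for 8 weeks, a high-fat diet with 60% of its calories from fat (HFD). Each of the 4 conditions was 1 library. Values are listed throughout with WT before SP and, within a genotype, ND before HFD. Differences between conditions therefore have no replicate error, no test was made of them, and every interval printed for a library covers counting error only.

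Monocytes are short-lived phagocytes that leave the bone marrow for the blood. Classical monocytes carry the surface protein Ly6C and the chemokine receptor CCR2, enter inflamed tissue and can turn into macrophages or antigen-presenting cells. Non-classical monocytes arise from them, lose Ly6C, depend on the nuclear receptor NR4A1 and patrol the vessel wall. Dendritic cells are specialised in antigen presentation on major histocompatibility complex (MHC) class II: type 1 conventional dendritic cells (cDC1) carry the chemokine receptor XCR1 and need the factors IRF8 and BATF3, and type 2 cells (cDC2) carry lectins such as CD209a and MGL2. Plasmacytoid dendritic cells are a separate line that senses viral nucleic acids and carries Siglec-H.

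In that order the libraries gave 122, 122, 141 and 150 cells. A cell was called a monocyte member where its UMIs of Ly6c2 and Plac8 outnumbered those of Flt3, Cd209a and Xcr1, and a dendritic member where they were fewer. Monocyte members numbered 81, 71, 93 and 85, and dendritic members 36, 45, 43 and 60. The sums were equal in 5, 6, 5 and 5 cells, which were left unresolved. Members had a median of 3771, 6974, 4993 and 5539 UMIs, so the cells of WT-ND were the shallowest and those of WT-HFD the deepest. The libraries as a whole held 93142028, 115117649, 111617794 and 90728590 UMIs in the same order.

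The gate itself fixes the levels of its own genes, which are given as a description. Plac8, a small cysteine-rich protein of myeloid cells (5:100553725-100572245, minus strand, GRCm38), was found in 371 of the 535 cells, and Ccr2 (9:124101950-124113557, plus strand) in 379. Ly6c2 (15:75108158-75111970, minus strand) was found in 124, Cd209a (8:3743397-3748984, minus strand) in 160, Flt3, the receptor that dendritic cells need for their growth (5:147330741-147400489, minus strand), in 68, and Xcr1 (9:123852315-123862029, minus strand) in 65. The label thus leaned on Plac8 and Ccr2 more than on Ly6c2 or Flt3. No dendritic member held both Xcr1 and Cd209a, 88 cells held UMIs of both the monocyte and the dendritic genes, and 16 cells entered through Ccr2 alone. At the limits, 47 cells had a marker sum of exactly 3 and 53 otherwise eligible cells stopped at 2. C1q was at 0 in 516 of the 535 cells, no member had 4 C1q UMIs, 1 cell was shut out with 5, and 63 cells with the markers had 5 or more. Across libraries 381 barcodes occurred in more than 1 library, and 1 of them was a member in both WT-HFD and SP-ND.

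Values below are CPM, the UMIs of a class summed over its cells within a library and scaled to a total of 1000000. In monocyte members Plac8 stood at 2159, 2012, 2332 and 2194 CPM, and Ly6c2 at 244, 173, 205 and 216 CPM. In dendritic members Cd209a stood at 662, 689, 637 and 650 CPM, Xcr1 at 252, 172, 242 and 152 CPM, and Flt3 at 52.6, 63.0, 74.5 and 42.1 CPM. T cells, which also use Ly6C, had Ly6c2 at 41.2, 31.0, 39.4 and 80.2 CPM. The coding sequence of Ly6c2 differs from that of its neighbour Ly6c1 at 9 of 396 bases, and 88 of 351 windows of 50 bases at the 3′ end of the Ly6c2 transcript occur in Ly6c1, so reads of these paralogs may be split or lost and their levels are uncertain.

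Splitting the monocyte members by Ly6c2 separated cells that differed in genes outside the gate. Ly6c2 was found in 29, 19, 42 and 28 cells, and not in 52, 52, 51 and 57. Ace, the angiotensin-converting enzyme that mouse non-classical monocytes express, stood at 211, 536, 309 and 363 CPM in the cells without Ly6c2, against 21.7, 33.6, 67.2 and 65.6 CPM in those with it. Treml4, a receptor of non-classical monocytes, stood at 148, 324, 171 and 210 CPM against 21.7, 26.9, 56.0 and 43.7 CPM. For both genes the lowest library of the cells without Ly6c2 lay above the highest of the cells with it. In the HFD libraries 10 of 19 and 17 of 28 cells with Ly6c2 carried the plasmacytoid or immunoglobulin RNA described below, and without such cells Ace stood at 22.5, 64.4, 70.5 and 136 CPM and Treml4 at 22.5, 51.5, 58.7 and 99.3 CPM in the cells with Ly6c2, still below every library of those without it. The split reads a sparse gene, so a shallow cell can land in the class without Ly6c2, and the median depth of that class was lower in all 4 libraries, at 2366, 5148, 4210 and 3743 UMIs against 3999, 7076, 4950 and 5618.

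Dendritic members also fell into a pair of types. Xcr1 exceeded Cd209a in 13, 16, 14 and 15 cells, and Cd209a exceeded Xcr1 in 23, 28, 29 and 44. Irf8, the factor that cDC1 depend on, stood at 1675, 1418, 1441 and 1216 CPM in the Xcr1 cells and at 53.3, 64.2, 51.1 and 35.4 CPM in the Cd209a cells. Clec9a, a cDC1 receptor for dead cells, stood at 142, 218, 385 and 164 CPM in the Xcr1 cells, and among Cd209a cells was found in SP-ND alone. Mgl2, a cDC2 lectin, was at 631, 1210, 1207 and 1407 CPM in the Cd209a cells and at 0 in the Xcr1 cells of every library. These levels describe cells sorted on related genes, and no test was made between the Xcr1 and the Cd209a cells.

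**Figure D1:**
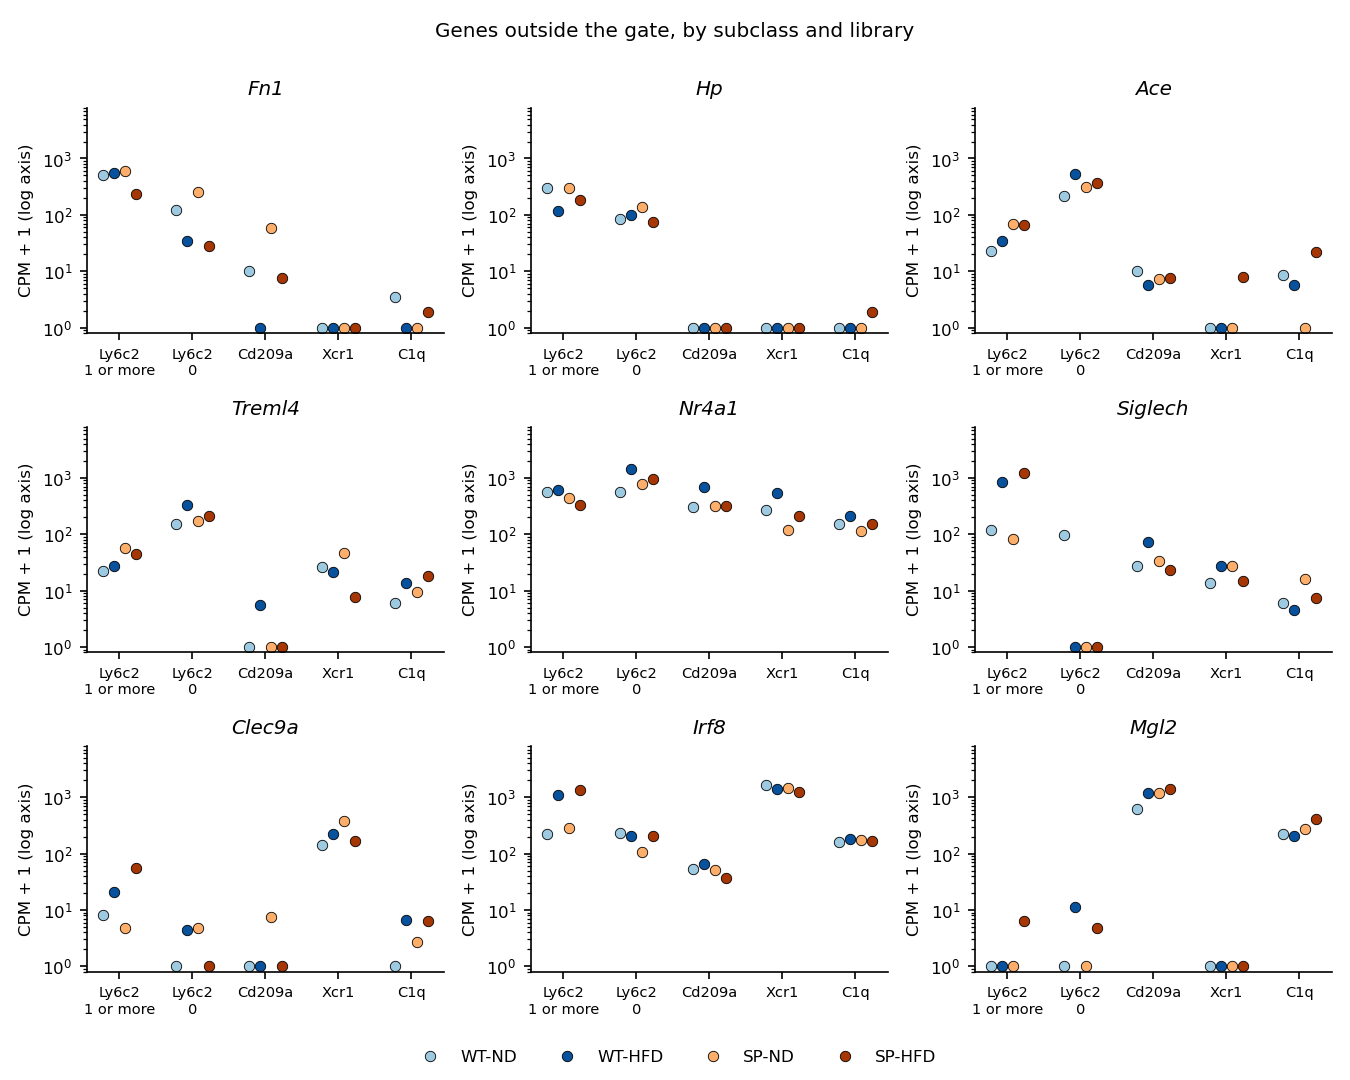
Level of 9 genes outside the gate (CPM plus 1, log axis) in monocyte members with and without Ly6c2, in Cd209a and Xcr1 dendritic members and in C1q macrophages, with 1 point per library. Ace and Treml4 were highest in monocyte members without Ly6c2, Clec9a and Irf8 in Xcr1 cells, and Mgl2 in Cd209a cells, while Siglech was high in the Ly6c2 cells of the HFD libraries.

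Monocyte and dendritic members were next compared over the 4 libraries, each library holding both. In edgeR's quasi-likelihood test on summed UMIs, 503 of 5462 genes were higher in monocyte members (9.21%) and 515 lower (9.43%) at an adjusted p under 0.05, together 18.6% of the genes tested. Of these, 8 were genes of the gate, which carry no test. The classes were cut from the same cells on 5 of the gate's genes, so genes that travel with those 5 had to differ.

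All 12 non-classical markers were higher in monocyte members, with a median log2 fold of 2.71 against 0.04 for all genes tested, and so were all 6 classical markers tested outside the gate, with a median of 4.13. Ace stood at 131, 368, 188 and 241 CPM in monocyte members and at 5.26, 2.42, 3.73 and 6.31 CPM in dendritic members (log2 fold 5.58 ± 0.53 (SE), adjusted p = 6.74e-06). Fn1, the gene of the matrix protein fibronectin and a classical monocyte marker, stood at 287, 209, 421 and 112 CPM against 5.26, 0, 33.5 and 4.21 CPM (log2 fold 4.45 ± 0.41 (SE), adjusted p = 4.88e-06). Neither gene's libraries overlapped between the classes. Hp, the haemoglobin-binding protein haptoglobin, had 274 UMIs in monocyte members (177, 103, 218 and 119 CPM) and 0 in dendritic members. With the 0 entered at a floor of 3 counts over the group, its log2 ratio was 6.13 (lower 95% counting bound 5.82). Pla2g7, a secreted phospholipase, Slpi, a protease inhibitor, the scavenger receptor Colec12, and Tppp3, a tubulin-binding protein, also rose in monocyte members, with log2 folds from 4.78 to 5.45 by the fit. Slpi and Colec12 had 3 UMIs each in all dendritic members, and their log2 ratios of pooled CPM were 5.59 (95% counting interval 4.02 to 7.88) and 5.67 (4.10 to 7.96). Cox6a2 and Fabp4, which were also among the 10 genes that rose most, are taken up below with the cells and libraries that carried them.

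Dendritic members were higher for antigen presentation. Of 9 genes tested from that list 8 were lower in monocyte members (median log2 fold -2.35), and the other gene, the costimulator Cd86, had an adjusted p of 0.0508. H2-Eb1, an MHC class II beta chain (17:34305867-34316674, plus strand), stood at 6382, 8682, 8389 and 8990 CPM in dendritic members and at 479, 1508, 526 and 1466 CPM in monocyte members (log2 fold -3.37 ± 0.25 (SE), adjusted p = 1.16e-06). H2-Oa and H2-Ob, the chains of the chaperone that limits peptide loading, had log2 folds of -3.81 and -3.78. Naaa, a lysosomal amidase, and Wdfy4, which cDC1 need for cross-presentation, were lower in monocyte members by log2 folds of -3.18 and -2.83. Mgl2 showed the largest fall among the named genes, from a mean of 659 CPM in dendritic members to 2.81 CPM (log2 fold -7.97 ± 0.36 (SE), adjusted p = 1.69e-08). All 8 cDC1 markers tested were lower in monocyte members. The 5 cDC2 markers went both ways, with 2 lower (Mgl2 and Clec10a) and 2 higher (Sirpa and Itgam). The X-linked Xlr, the NF-kB regulator Tnip3, the kinase gene Pak1 and the B cell receptor partner Cd72 completed the 10, at log2 folds from -5.55 to -2.90.

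**Figure D2:**
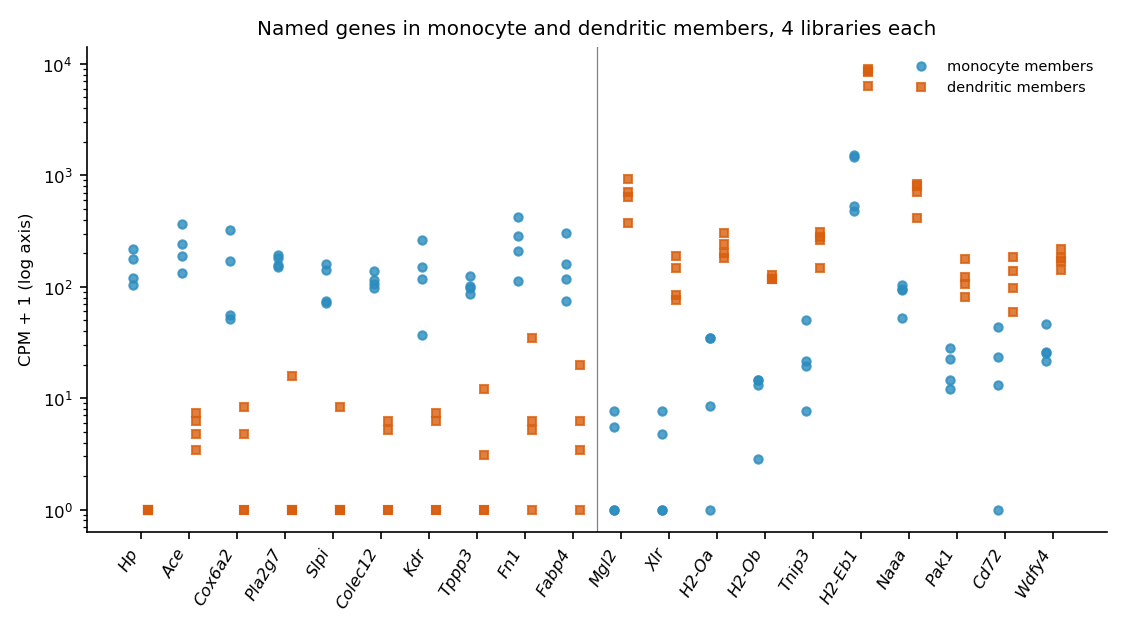
Level (CPM plus 1, log axis) of the 10 genes highest and the 10 lowest in monocyte members (circles) against dendritic members (squares), with 4 points per gene and class, 1 per library. In none of the 20 genes did the libraries of the classes overlap.

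The other lists are read against the 18.6% of all genes called in this comparison (9.21% higher, 9.43% lower). Of 9 lipid handling genes tested, 5 were higher in monocyte members: Plin2, which coats lipid droplets, the fatty acid carrier Fabp4, the lipase Lpl, the cholesterol exporter Abcg1 and Pparg. Plin2 stood at a mean of 390 ± 38.0 CPM (SD, n = 4) against 87.3 CPM (log2 fold 1.99, adjusted p = 3.98e-05 by edgeR). Of 10 growth factor and pattern receptors, 5 were higher, among them Csf1r, the receptor that keeps monocytes alive, and the RNA sensor Tlr7. Markers of other cells moved with these lists. Of 6 macrophage markers 4 were higher, Csf1r among them, and 1 lower (median log2 fold 1.88), and 3 of 3 endothelial markers were higher (median 3.81). Their part in these counts was not tested. Of 11 interferon-stimulated genes, 5 were higher (Bst2, Irf7, Isg15, Rsad2 and Zbp1). Plasmacytoid markers, Bst2 among them, moved with these, 5 of 6 being higher in monocyte members (median log2 fold 2.22), and without the Siglech and immunoglobulin cells the log2 fold of Bst2 went from 2.02 to 0.28 (adjusted p = 0.378 by edgeR). Of 5 cell cycle genes 4 were lower in monocyte members, among them Mki67 and Top2a, which dividing cells express, and the other two were Tubb5 and Stmn1. Of 11 NF-kB and cytokine genes only Nfkbia passed, lower in monocyte members. Il1b averaged 682 CPM in monocyte members and 622 CPM in dendritic members (log2 fold -0.10 ± 0.21 (SE), adjusted p = 0.821 by edgeR). Its means and its fitted fold differ in sign, so no direction is read for Il1b. Of 11 chemokine and receptor genes 4 were higher (Ccl6, Cxcr4, Cx3cr1 and Ccl9) and 1 lower (Cxcl16). The early genes of the AP-1 list gave 1 call each way of 9 and the methionine and PRC2 list 1 of 5 (Ezh2, lower in monocyte members). Glycolysis gave 1 each way of 5, and heat shock 2 of 5 (Hsph1 and Dnajb1, lower in monocyte members). From the AP-1 list on, the counts were too small to set apart from the 18.6% of all genes.

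C1q macrophages met the gate's limits on Ptprc, Lyz2 and Cd74 and on other cell types, had 5 or more C1q UMIs, needed no marker sum, and numbered 126, 148, 132 and 221. Against them 588 genes were higher (10.8%) and 583 lower (10.7%) in monocyte members, together 21.4% of 5462 genes, and 415 were higher and 415 lower in dendritic members (7.6% each way, 15.2% together). These counts hold 10 genes of the gate for monocyte members and 9 for dendritic members, which carry no test. Members and macrophages were cut apart on their C1q UMIs and on the marker sum, so genes that travel with C1q or with the markers had to differ. All 6 macrophage markers tested outside the gate were lower in monocyte members and in dendritic members. Apoe, the lipid carrier of macrophages, averaged 3370 CPM in macrophages and 34.0 CPM in dendritic members (log2 fold -6.71 ± 0.41 (SE), adjusted p = 2.13e-07 by edgeR). Pf4, a chemokine of resident macrophages as well as platelets, had 728 UMIs in macrophages and 0 in monocyte members, a log2 ratio of -7.16 or lower against the floor of 3 counts over the group. Mrc1, the mannose receptor, averaged 192 CPM in macrophages and 9.64 CPM in monocyte members.

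Pglyrp1, a granule protein that binds bacterial peptidoglycan, averaged 216 ± 43.8 CPM (SD, n = 4) in monocyte members against 2.36 CPM in macrophages. Ear2, an eosinophil-type ribonuclease of non-classical monocytes, averaged 192 ± 73.8 CPM in monocyte members against 3.63 CPM in macrophages. Of 9 antigen presentation genes 8 were lower in monocyte members than in macrophages (median log2 fold -1.33), and in dendritic members 3 were higher than in macrophages (H2-Oa, H2-DMb2 and H2-DMa). In dendritic members 7 of 8 cDC1 markers exceeded macrophages. Of 5 cDC2 markers 2 did (Mgl2 and Clec10a), and 1 was lower (Sirpa). Cbfa2t3, a corepressor of the dendritic lineage, averaged 190 CPM against 27.4 CPM, and the leukotriene B4 receptor gene Ltb4r1 100.1 CPM against 4.29 CPM (log2 fold 4.46 ± 0.29 (SE), adjusted p = 2.86e-07 by edgeR).

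RNA of other kidney cells was present in the set and differed by library. The 6 proximal tubule markers summed to 8691, 3903, 2526 and 1470 CPM in monocyte members and to 5893, 1178, 1390 and 1233 CPM in dendritic members, led by Kap, an androgen-dependent tubule gene, with all 6 detected in monocyte members. The sum was highest in WT-ND in both classes, and its part in the contrasts between conditions was not tested beyond the values given. The 4 endothelial markers summed to 684, 278, 550 and 117 CPM in monocyte members against 21.0, 2.42, 11.2 and 61.0 CPM in dendritic members, and 3 of 3 tested (Kdr, Flt1 and Emcn) were higher in monocyte members. Kdr, the VEGF receptor of endothelium, is one of the 10 genes named as most raised in monocyte members and stood there at 263, 117, 149 and 36.0 CPM. T cell markers summed to at most 6.74 CPM in any library of either class, and erythroid markers to at most 5.59 CPM.

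The set's share of kept cells was 1.12% (0.933 to 1.34, the Clopper-Pearson interval at 95%) for WT-ND and 1.26% (1.05 to 1.50) for WT-HFD. The SP-ND share was 2.09% (1.76 to 2.46) and the SP-HFD share 2.01% (1.70 to 2.35). Both SP libraries lay above both WT libraries with intervals that did not meet. Among cells with Ptprc the shares were 14.4, 14.6, 19.9 and 17.2%, and among members plus C1q macrophages 49.2, 45.2, 51.7 and 40.4%, so the order of the libraries changed with the denominator. SP libraries also held fewer kept cells, at 6754 and 7466 against 10869 and 9700.

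Cells with plasmacytoid genes were unevenly spread over the libraries. Members with 2 or more UMIs of Siglech and Ccr9, genes of plasmacytoid dendritic cells, were few on ND and more frequent on HFD, with 2 and 12 cells in WT and 3 and 16 in SP. Their shares of members were 1.64% (0.199 to 5.80), 9.84% (5.19 to 16.6), 2.13% (0.441 to 6.09) and 10.7% (6.22 to 16.7), with intervals that overlapped between diets in WT and not in SP. Of these cells 2, 9, 3 and 16 were monocyte members, classed by Ly6c2 and Plac8, which plasmacytoid cells also express. They carried Irf8 at 3811, 2004, 3800 and 2307 CPM and Tcf4, the factor that fixes the plasmacytoid line, at 2117, 985, 1779 and 1300 CPM. This limit of 2 UMIs, and one of 10 UMIs of the plasma cell genes Jchain and Igkc, were chosen after the values had been seen.

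Among all monocyte members, cells with Ly6c2 were 35.8% (25.5 to 47.2) in WT-ND and 26.8% (16.9 to 38.6) in WT-HFD, and in SP kidneys 45.2% (34.8 to 55.8) on ND and 32.9% (23.1 to 44.0) on HFD. The share expected with each cell thinned to 1000 UMIs, averaged over all possible draws, was 17.1, 10.9, 17.5 and 14.2%. Both measures were lower on HFD in each genotype, and all of these intervals overlapped between diets. In C1q macrophages, which should lack the gene, the expected share was at most 0.192%, and in T cells, some of which express it, 4.35, 2.58, 4.80 and 6.84%.

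Without the cells past the limits on Siglech, Ccr9 and immunoglobulin, monocyte members with Ly6c2 numbered 28 and 9 in WT and 39 and 11 in SP. Of the monocyte members that remained they were 35.4% (25 to 47.0) and 15.3% (7.22 to 27.0) in WT and 43.3% (32.9 to 54.2) and 16.2% (8.36 to 27.1) in SP. Thinned, the expected shares were 17.2, 5.21, 16.2 and 5.67%, and their intervals overlapped between diets in both genotypes. Ly6c2 is a gene of the gate, so these shares are a description of the gated cells and support no difference between diets. Remaining monocyte members without Ly6c2 numbered 51, 50, 51 and 57.

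Genes outside the gate were read in the same way over all monocyte members. The expected share of thinned cells with Fn1 was 22.7% (14.0 to 33.5), 7.22% (2.43 to 15.9), 25.03% (16.6 to 35.1) and 4.76% (1.33 to 11.7). F13a1, which encodes a coagulation factor XIII subunit in classical monocytes, gave 18.1% (10.3 to 28.4), 3.59% (0.616 to 10.9), 22.7% (14.6 to 32.5) and 5.72% (1.85 to 12.98). Both were lower on HFD in each genotype, with thinned intervals that met in WT and not in SP. Without thinning, the shares of the same cells were 43.0, 16.9, 41.9 and 8.24% for Fn1. For F13a1 they were 39.2, 9.86, 49.5 and 14.1%. The unthinned intervals of both genes did not meet between diets in either genotype, and no difference between genotypes was tested. In C1q macrophages the expected share was at most 0.097% for Fn1, and 2.09, 0.196, 1.51 and 2.08% for F13a1. Hp gave 17.2, 9.11, 18.6 and 8.86%, and Ace, which was higher on HFD, 15.9, 32.1, 18.5 and 25.7%, and for both of these the intervals met between diets in each genotype. Without the Siglech and immunoglobulin cells the expected thinned shares on HFD were 8.50 and 5.96% for Fn1, 4.32 and 7.15% for F13a1 and 38.7 and 31.9% for Ace, in the same directions. The F13a1 intervals then met in SP too (15.1 to 33.5 on ND, 2.3 to 16.1 on HFD), and those of Fn1 did not.

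**Figure D3:**
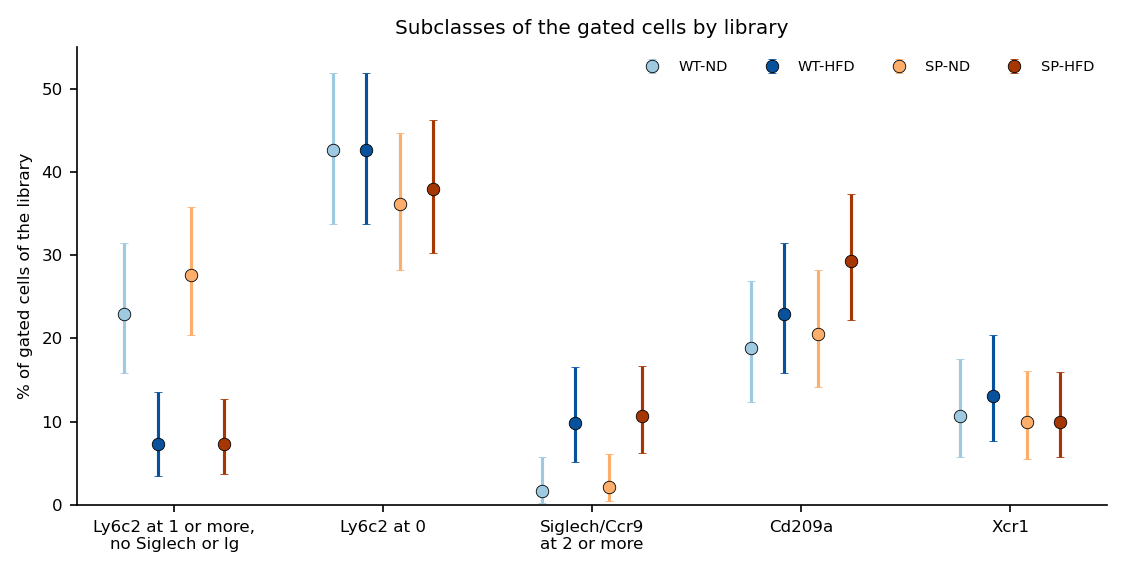
Share of the gated cells of each library (percent, points) that fell in 5 subclasses, with Clopper-Pearson 95% intervals as bars. Cells with Ly6c2 and without Siglech or immunoglobulin RNA sat at 23.0 and 27.7% on ND and at 7.38 and 7.33% on HFD. Their intervals did not overlap between diets, but Ly6c2 is a gene of the gate and the shares are a description. Cells with Siglech or Ccr9 sat at 1.64 and 2.13% on ND and at 9.84 and 10.7% on HFD, with intervals that overlapped in WT and not in SP. Those of the remaining subclasses overlapped between diets.

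For gene levels, a contrast between 2 libraries was read for genes with at least 100 UMIs over the pair, and a gene was counted when its ratio passed 2-fold. In monocyte members 10.6% of 992 genes passed 2-fold between WT-HFD and WT-ND (5.95% higher on HFD, 4.64% lower) and 7.33% of 1255 between SP-HFD and SP-ND (3.43% higher, 3.9% lower). The WT pair and the SP pair share no library, and 17 of 969 genes (1.75%) were higher on HFD in both, 15 (1.55%) lower in both and 1 (Defb1, 0.103%) opposite. In dendritic members 7.81% of 602 genes passed 2-fold in the WT pair and 3.31% of 785 in the SP pair, and 1 of 588 genes (0.17%) was higher in both, 1 lower in both (0.17%) and 1 (Igfbp7, 0.17%) opposite.

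MHC class II genes were among the 17. In monocyte members H2-Aa (17:34282744-34287823, minus strand), an alpha chain, stood at 977 and 2999 CPM in WT and 1325 and 2951 CPM in SP, on ND and HFD. H2-Ab1, its beta chain (17:34257689-34269419, plus strand), stood at 709, 2003, 796 and 2158 CPM, and H2-Eb1 at 479, 1508, 526 and 1466 CPM. Both HFD libraries lay above both ND libraries for all 3 genes. Dendritic genes of the gate moved with them in monocyte members. Cd209a was found in 2.47, 16.9, 6.45 and 16.5% of these cells, and Flt3 in 1.2, 8.5, 2.2 and 10.6%. Over all members, 14, 29, 16 and 29 cells held UMIs of both the monocyte and the dendritic genes. The part of such cells in the class II levels was not tested beyond the values given here and below. The ratio of HFD to ND was 3.07-fold in WT and 2.23-fold in SP for H2-Aa, 2.83- and 2.71-fold for H2-Ab1, and 3.14- and 2.79-fold for H2-Eb1. In dendritic members, where these genes were higher in every library, none of the 7 antigen presentation genes with enough UMIs passed 2-fold in either diet pair, and H2-Aa stood at 7475, 9785, 9779 and 9530 CPM. The other kept cells of the libraries moved the same way, from 98.8 to 208 CPM of H2-Aa in WT and from 165 to 315 CPM in SP.

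The class II RNA of monocyte members sat in a minority of cells. The median monocyte member had 3.31, 8.82, 1.14 and 28.6 class II UMIs per 10000. Cells with at least 50 per 10000, a limit chosen after the values had been seen, numbered 15 of 81 (18.5%), 23 of 71 (32.4%), 18 of 93 (19.4%) and 32 of 85 (37.6%), and they held 75.9, 90.7, 80.3 and 89.5% of the class II UMIs. In dendritic members all but 1 cell of each library passed that limit. When members were kept only with at least 2 UMIs of their own marker genes and none of the other class's, the ratios in WT fell to 1.52-fold for H2-Aa, 1.40-fold for H2-Ab1 and 1.48-fold for H2-Eb1, and in SP they were 2.27-, 2.65- and 3.46-fold. As a mean over cells rather than a pooled sum, the ratios in WT were 1.94-, 1.97- and 1.89-fold, under the 2-fold limit, and in SP 1.76-, 2.27- and 2.15-fold. With each cell thinned to 1000 UMIs they were 1.73-, 1.78- and 1.96-fold in WT and 1.62-, 1.88- and 2.71-fold in SP. Only H2-Eb1 in SP passed 2-fold after thinning.

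**Figure D4:**
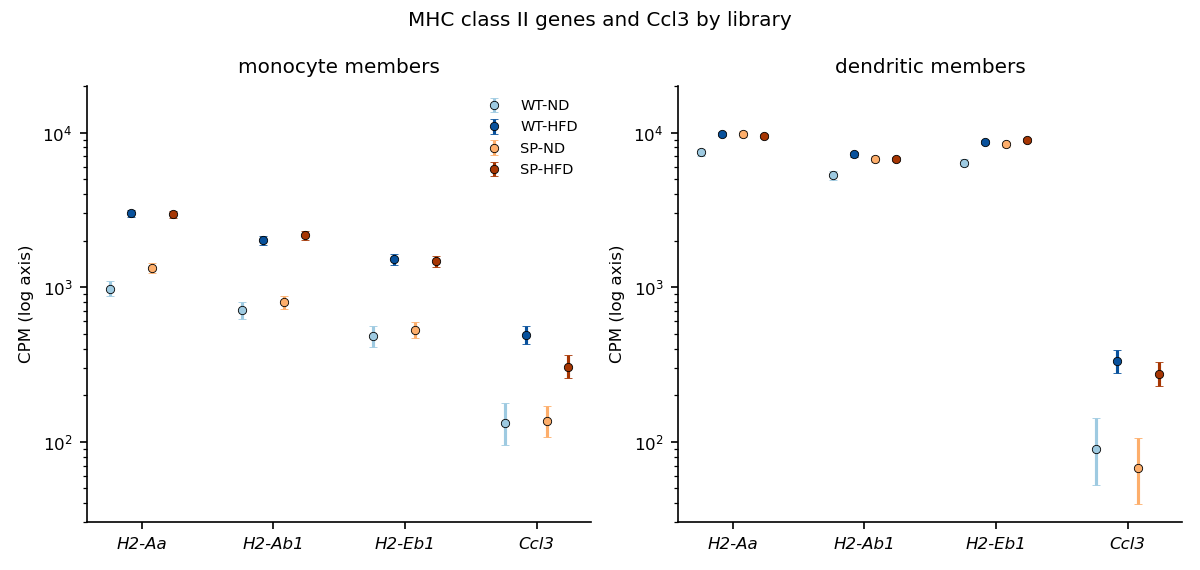
Level (CPM, log axis) of the MHC class II genes H2-Aa, H2-Ab1 and H2-Eb1 and of Ccl3 by library in monocyte members (left) and dendritic members (right), with exact Poisson 95% intervals as bars. In monocyte members both HFD libraries sat above both ND libraries for all 4 genes, and in dendritic members that held for Ccl3 but not for H2-Aa. The dendritic points of H2-Ab1 and H2-Eb1 had the same order as Ccl3, but their SP-ND and SP-HFD intervals overlapped. H2-Ab1 stood there at 6720 CPM in SP-ND and 6741 CPM in SP-HFD.

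Class II genes are switched on together through the coactivator CIITA, which binds factors held on conserved promoter boxes, among them the X box and the Y box (an inverted CCAAT). Because these genes separated dendritic from monocyte members and moved together, their promoters are shown, read from RefSeq for GRCm38.p6. The 250 bases before each start site were searched on both strands for GATTGG, the Y box core, and for CTNGNAACT, letters chosen after the class II promoters had been read. GATTGG was present in 14.6% of 32851 promoters, CTNGNAACT in 3.47% and both in 0.511%. Of the antigen presentation genes found in the table, 3 held both, and their stretches are given 5′ to 3′ on the gene's strand with both matches in capitals. They lie at chr17:34153074-34153154 (plus strand), chr17:34287847-34287927 (minus strand) and chr17:34305753-34305832 (plus strand).
H2-DMb1: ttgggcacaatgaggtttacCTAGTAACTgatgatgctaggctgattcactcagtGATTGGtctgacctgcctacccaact
H2-Aa: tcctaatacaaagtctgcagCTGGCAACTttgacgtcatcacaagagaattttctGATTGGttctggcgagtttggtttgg
H2-Eb1: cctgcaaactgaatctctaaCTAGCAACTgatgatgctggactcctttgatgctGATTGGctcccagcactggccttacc
The second match began 49 to 62 bases before the start site and the first 84 to 97 bases before it. H2-Oa, H2-DMb2 and 1 of the 2 H2-DMa entries held GATTGG alone, and Cd80 held neither. A match describes letters and is not evidence of binding in these cells.

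Of 8 chemokine and receptor genes with enough UMIs in monocyte members, 3 passed 2-fold higher on HFD in the WT pair and 1, Ccl3, in the SP pair, against 5.95 and 3.43% of all genes. Ccl3, which attracts monocytes and T cells (11:83647844-83649355, minus strand), stood at 131, 489, 136 and 306 CPM in monocyte members. In dendritic members it stood at 89.4, 332, 67.1 and 276 CPM and was the gene higher in both diet pairs, with log2 ratios of 1.89 (1.16 to 2.71) in WT and 2.04 (1.32 to 2.84) in SP. The dendritic signal lay in the Cd209a cells (151, 564, 109 and 418 CPM) and was near absent from the Xcr1 cells (0, 72.7, 8.95 and 6.83 CPM). It was also uneven, with Ccl3 UMIs in 7, 15, 6 and 15 dendritic cells and 58.8% of those of WT-ND in 1 cell. All other kept cells had log2 ratios of 1.61 and 1.27 for the same pairs. Ccl4, its close relative, stood at 144, 491, 442 and 753 CPM in monocyte members, past 2-fold in WT only.

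The other lists moved in 1 pair more than in the other, and no difference between the pairs was tested. Of 5 NF-kB and cytokine genes with enough UMIs in the WT pair of monocyte members, 3 passed 2-fold higher (Nfkbia, Nfkbiz and Rel), and none of 4 did in the SP pair, against 5.95 and 3.43% of all genes. Nfkbia, the feedback inhibitor of NF-kB, stood at 229, 583, 384 and 515 CPM. Il1b, the cytokine gene, stood at 638, 736, 619 and 735 CPM, with log2 ratios of 0.20 (-0.05 to 0.46) in WT and 0.25 (0.02 to 0.47) in SP. Of 5 heat shock genes 3 passed 2-fold higher in the WT pair of monocyte members and 1 of 4 in the SP pair, and Dnajb1, an HSP40 cochaperone, was higher in both pairs at 104, 328, 201.3 and 483 CPM. In dendritic members the 5 heat shock genes summed to 5372, 9647, 6645 and 5037 CPM and the 9 AP-1 and early genes to 7464, 11217, 8207 and 6255 CPM, higher on HFD in WT and lower on HFD in SP. Heat shock and early genes are also induced by warm tissue digestion, which was part of the cell preparation in all 4 libraries.

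Monocyte markers were read the same way. Of 10 non-classical markers with enough UMIs 4 passed 2-fold higher in the WT pair of monocyte members and 1 in the SP pair, against 5.95 and 3.43% of all genes, and the difference between the pairs was not tested. Gngt2, a G protein subunit, stood at 483, 1093, 501 and 931 CPM, with log2 ratios of 1.18 (0.92 to 1.45) in WT and 0.89 (0.67 to 1.12) in SP. Without the Siglech and immunoglobulin cells its log2 ratios were 1.44 and 1.19, past 2-fold in both pairs, as were those of Ear2 at 1.15 and 1.46. Of the classical markers 0 of 5 passed 2-fold in the WT pair, and in the SP pair 3 of 7 passed lower and 1 higher, against 3.9 and 3.43% of all genes. Ms4a4c stood at 254, 164, 341 and 157 CPM and F13a1 at 211, 60.6, 296 and 87.7 CPM, though F13a1 had under 100 UMIs in the WT pair.

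Several genes of the diet list followed the Siglech cells or single cells. Siglech stood at 104, 280, 41.0 and 506 CPM in monocyte members and Bst2, an antiviral tether abundant in plasmacytoid cells, at 195, 655, 268 and 834 CPM. Cox6a2, a cytochrome oxidase subunit that plasmacytoid cells express, stood at 54.97, 168, 50.3 and 321 CPM. Irf8 was higher in both pairs as well, at 229, 498, 194 and 665 CPM. Without the Siglech and immunoglobulin cells none of Siglech, Bst2 and Irf8 was among the 15 genes (1.78% of 844) higher in both pairs, while H2-Aa, H2-Ab1, H2-Eb1, Ccl3, Pmaip1 and the phosphatase gene Dusp2 were. Igkc, the kappa light chain, stood at 45.8, 731, 0 and 7931 CPM, and 1 cell held 96.8% of its 3528 UMIs in SP-HFD. Igha, the IgA heavy chain, stood at 21.4, 372, 1.86 and 1369 CPM, with 92.9% of the SP-HFD UMIs in 1 cell. Among all other kept cells the log2 ratios were 2.67 and 6.36 for Igkc and 2.45 and 6.78 for Igha, so immunoglobulin RNA was higher across both HFD libraries.

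Among the 15 genes lower in both diet pairs were the tubule and endothelial genes named below and the mitochondrial genes mt-Nd3 and mt-Atp8. Whether such genes were more frequent there than among all 969 genes was not tested. S100g, a calcium-binding protein of the distal tubule, fell most in WT, from 1536 to 162 CPM, but 86.1% of its WT-ND UMIs lay in 1 cell, and it stood at 266 and 56.2 CPM in SP. Slc27a2, a fatty acid transporter of the proximal tubule, stood at 360, 110, 244 and 45.0 CPM, and Miox, a proximal tubule oxygenase, at 281, 114, 360 and 60.7 CPM. Cltrn (collectrin), Spink1 and Acsm2 had the same order of diets. Emcn, an endothelial mucin, stood at 256, 101, 214 and 45.0 CPM from 4, 3, 5 and 3 cells. Among all other kept cells the log2 ratios of Slc27a2 were -0.76 and -0.56, in the same direction, and those of Emcn 0.51 and 0.76, in the opposite one.

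**Figure D5:**
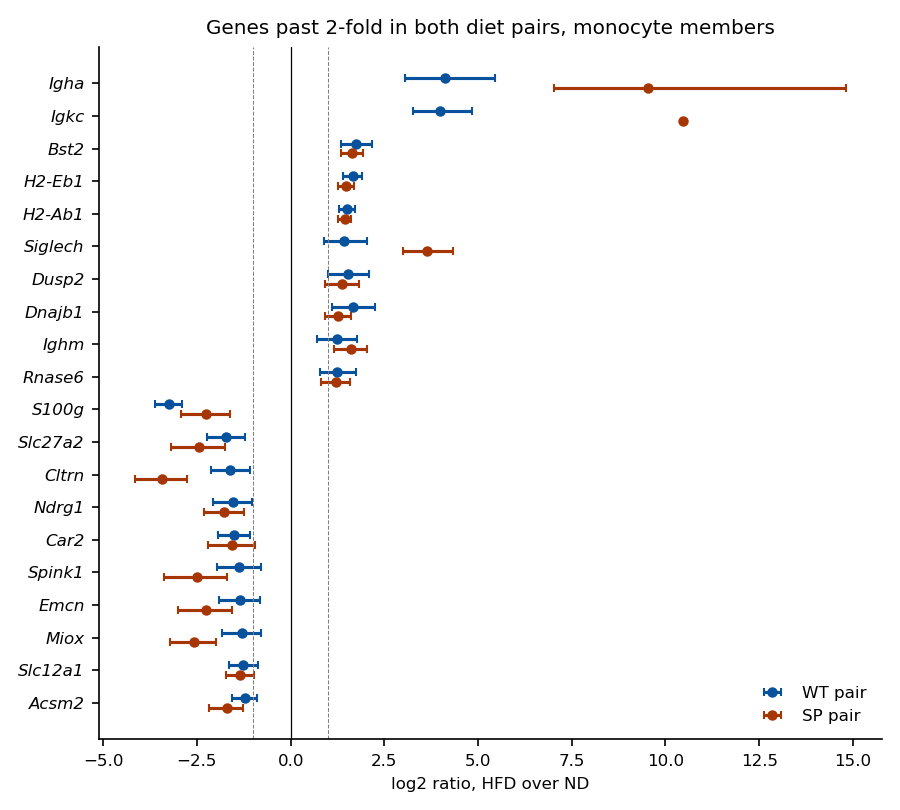
log2 ratio of HFD to ND in monocyte members for the 10 genes ranked highest and the 10 ranked lowest among those past 2-fold in both pairs, with the WT pair in blue, the SP pair in brown and exact 95% counting intervals as bars. Igha and Igkc (no bar in the SP pair, where SP-ND had 0 UMIs) stood furthest out.

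Between genotypes, in monocyte members, 2.6% of 1117 genes passed 2-fold between SP-ND and WT-ND and 3.88% of 1134 between SP-HFD and WT-HFD. In both pairs 4 of 971 genes were lower in SP (0.412%), 0 were higher, and 3 (0.309%) were past 2-fold in opposite directions. The 4 were Kap, Acy3, Atp6v1g3 and Car2. Each is known from kidney epithelium, but no test of that group was made. Kap stood at 7717, 3388, 1573 and 1250 CPM, and its log2 ratio among all other kept cells was -1.94 on ND and -0.99 on HFD. Atp6v1g3, a proton pump subunit of intercalated cells, came largely from single cells, with 56.0 and 88.5% of its WT-ND and WT-HFD UMIs in 1 cell each. For Car2 these shares were 50.66 and 52.05%. In dendritic members 6.57% of 472 genes passed 2-fold on ND and 5.18% of 927 on HFD. There Umod, the thick limb gene of uromodulin, and Spp1, the gene of osteopontin, were higher in SP in both pairs (2 of 457 genes, 0.438%), while 6 (1.31%) were past 2-fold in opposite directions. Single cells carried much of the Umod signal, as 77.9 and 81.0% of the Umod UMIs of SP-ND and SP-HFD lay in 1 cell each, and 36.1 and 70.3% of those of Spp1. No gene of the myeloid or pathway lists was past 2-fold the same way in both genotype pairs over all members of either class. Among monocyte members without Ly6c2, with the Siglech and immunoglobulin cells left out, the 1 such gene of 503 (0.199%) was Ccl4, higher in SP with log2 ratios of 1.56 on ND and 1.21 on HFD, from 8, 10, 9 and 15 cells, with 46% of the SP-ND UMIs in 1 cell.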

How the data were processed

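Whole kidneys had been digested with Liberase TM, hyaluronidase, DNase I and trypsin, and libraries made with 10x Genomics 3′ v3.1 chemistry. The authors deposited 1 matrix of UMI counts per library, not normalised. Per the file headers it came from Cell Ranger 6.1.2, while the submitters' processing notes name Cell Ranger 2.1.1 and mm10. The lowest barcode held 500 UMIs. The study's limits on genes and mitochondrial share were applied here. Doublets were scored against simulated neighbours and removed only as an alternative.

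UMIs were summed over the cells of a class in each library and scaled to CPM, with Poisson intervals (exact). Ratios between libraries carry exact binomial intervals and no test, since each condition was 1 library, and these cover counting error only. A gene at 0 was entered at a floor of 3 counts. Monocyte members, dendritic members and C1q macrophages were compared over 12 sums with edgeR 4.0.16 (R 4.3.3), using TMM scaling, a library block, filterByExpr and the quasi-likelihood test with Benjamini-Hochberg adjustment at 0.05. Tested on data simulated for 5462 genes in the monocyte and dendritic comparison, the fit recovered 72.5% of 102 genes changed 2-fold and 100% of 98 changed 4-fold, with 11 false calls. All changed genes lay above the median level, and every gene was simulated with the same spread and no library effect. Recovery of scarcer or more variable genes was not tested. Named genes were, per class comparison, the 10 with the highest and the 10 with the lowest fold among those past the threshold, in the same direction in all 4 libraries and with a mean of at least 100 CPM in 1 class. Genes of the gate were left out. Between conditions they were up to 10 each way past 2-fold in both pairs that share no library, ranked by the smaller ratio, and members of fixed pathway and marker lists were named as well; 1 gene that met the rule is not reported here. Promoter sequences came from RefSeq (GRCm38.p6) and gene positions from GENCODE vM21. The members and the gene lists were chosen with earlier results of these data known. Alternatives were DESeq2 1.42.0, no expression filter, no block, each library left out, purer members, doublets removed, a 30% mitochondrial limit, a higher marker sum, thinned cells, 50 UMIs per pair and means over cells. Shares of cells with a UMI at 1000 UMIs per cell are hypergeometric expectations, with Clopper-Pearson bounds at the expected number of cells. They were added after the data had been seen, because single random draws differed in the direction of Ly6c2 between the SP libraries.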

Additional observations from a re-analysis of the deposited data

Results flagged for a closer look

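Fabp4, the fatty acid carrier of fat cells, endothelium and some macrophages, changed direction between the genotype contrasts. In monocyte members WT libraries had 73.3 CPM on ND and 305 on HFD, and SP libraries 158 and 117 CPM. As SP over WT this is 1.11 on ND and -1.38 on HFD (log2). With 1 library per condition this difference was not tested. Fabp4 rose 2.06 on the log2 scale from WT-ND to WT-HFD in monocyte members and 2.08 among all other kept cells. Among those other cells SP over WT was 1.39 on ND and 0.92 on HFD, higher in SP on both diets.

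Barcodes with 50% or more mitochondrial UMIs were outside every comparison. Of these, 7 (ND) and 5 (HFD) from WT kidneys and 12 (ND) and 6 (HFD) from SP kidneys met all other conditions of the gate.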

How the results depend on the processing

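Of 5197 single-gene values of the class comparisons recomputed under an alternative, 4854 kept their direction and side of the threshold, 204 fell short of it, 132 newly passed it and 7 reversed. Without the Siglech and immunoglobulin cells the log2 fold of Tcf4 was -0.074 for monocyte minus dendritic members, and against C1q macrophages those of Tcf4, Bst2, Igkc and Irf8 were -0.39, -0.75, -0.15 and -0.25; these cells carried those genes. With purer members the values against macrophages were -0.002 for Irf8 in monocyte members and -1.84 for Fn1 in dendritic members. Leaving out a library gave 708 to 929 calls for monocyte minus dendritic members, 773 to 980 for monocyte members minus macrophages (773 without SP-ND) and 487 to 749 for dendritic members minus macrophages (487 without WT-HFD), all with fewer samples. Counts of genes past 2-fold in both pairs were small and moved: for diet in monocyte members 32 became 61 at 50 UMIs per pair and 20 with doublets removed, for genotype in monocyte members 4 became 9, 1 with doublets removed and 2 without the Siglech and immunoglobulin cells, for diet in dendritic members 2 became 6 at 50 UMIs and 4 as a mean over cells, and for genotype in dendritic members 2 became 0 with doublets removed and 1 either with purer members or without the Siglech and immunoglobulin cells. Members were 1.58 and 1.85% of kept cells in WT and 3.19 and 2.77% in SP (ND, then HFD) at a 30% mitochondrial limit, 0.874% in WT-ND and 1.66% in SP-HFD at a marker sum of 5, and 0.768, 0.659 and 1.35% in WT-ND, WT-HFD and SP-HFD with cells thinned to 2000 UMIs in 1 random draw. Except where a value above shows it, the cause was not tested. The class comparisons were blocked by library. No paired test of the conditions was made, as each was 1 library and the labels carry no numbers that pair libraries. With 71 to 93 monocyte and 36 to 60 dendritic members per library, depth limits the condition contrasts to abundant genes.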
